A study of Mus musculus with 73 samples.

Results

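Genes of intraepithelial lymphocytes were followed through 3 kinds of measurement in mouse jejunum. The 10 genes form a list of lymphocyte genes, *Ptprc*, *Cd3e*, *Cd3g*, *Cd8a*, *Cd7*, *Gzma*, *Gzmb*, *Nkg7*, *Itgae* and *Ccl5*, given by name with no threshold on any value. All 10 were present in the epithelial count table, which holds 17399 genes, and all 10 were among its 8986 genes past the filter on low counts. The same 10 genes were then read in laser-captured stroma and in sorted single cells.

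The epithelium came from male mice aged 4 months that carried 1 Lgr5(GFP-ires-DTR/+) allele, 4 of them injected with diphtheria toxin (DT) and 4 with saline vehicle, all collected 48 h later. In this knock-in the receptor for the toxin is made wherever *Lgr5* is active, so crypt stem cells are targeted together with the *Lgr5*+ telocytes of the villus tip, and the comparison does not separate them. Control mice carried the same allele. The laser-capture microdissection (LCM) samples of crypt, villus bottom, villus center and villus top stroma, 29 sections in all, and the sorted single cells came from untreated C57BL/6 mice aged 3 months.

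Intraepithelial lymphocytes are T cells that sit between the enterocytes, above the basement membrane. Many carry CD8 as a pair of alpha chains and a large fraction use the gamma-delta T cell receptor. They hold granzymes ready for release and are kept in the epithelium by the integrin αE, encoded by *Itgae*, which binds E-cadherin on enterocytes. An epithelial preparation made with EDTA therefore contains them along with the enterocytes.

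In the genome annotation of mouse build GRCm38, the genes of the pan-leukocyte phosphatase CD45 (*Ptprc*, chr1:138062861-138175708), of the T cell receptor signalling chains CD3ε (*Cd3e*, chr9:44998740-45009627) and CD3γ (*Cd3g*, chr9:44969572-44980431) and of the co-receptor chain CD8α (*Cd8a*, chr6:71373427-71379173) all encode proteins. *Cd3e* and *Cd3g* lie close together on chromosome 9. The granzymes *Gzma* and *Gzmb* are serine proteases of cytotoxic granules and lie on different chromosomes. Their upstream sequences are shown because nearly all single cells with *Gzmb* transcripts also held *Gzma*. Each run gives the 250 bases before the RefSeq transcription start, 5′ to 3′ on the strand of the gene, with matches to the RUNX core motif TGTGGT on either strand in capitals. The *Gzma* sequence is chr13:113100982-113101231 on the minus strand and the *Gzmb* sequence is chr14:56262335-56262584 on the minus strand.

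Gzma: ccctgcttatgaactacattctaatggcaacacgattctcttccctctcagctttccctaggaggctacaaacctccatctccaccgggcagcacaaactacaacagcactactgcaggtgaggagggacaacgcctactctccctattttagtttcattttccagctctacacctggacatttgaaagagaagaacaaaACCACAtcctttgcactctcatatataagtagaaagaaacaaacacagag

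Gzmb: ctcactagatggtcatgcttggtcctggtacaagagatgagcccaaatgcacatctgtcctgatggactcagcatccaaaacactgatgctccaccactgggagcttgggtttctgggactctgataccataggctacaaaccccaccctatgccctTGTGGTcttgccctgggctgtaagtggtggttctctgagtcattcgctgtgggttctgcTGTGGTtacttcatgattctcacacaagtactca

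RefSeq windows of 250 bases were matched for 7 of the 10 members. RUNX factors are regulators of CD8 T cell genes, and the motif TGTGGT had 1 match upstream of *Gzma*, 2 upstream of *Gzmb* and 1 upstream of *Nkg7*, a granule membrane protein gene. These 3 of 7 members compare with 14% of 32851 windows of the same length. The E-box CAGNTG occurred in 5 of 7 members and 44.8% of windows, the ETS motif CAGGAAG in 3 of 7 and 10.8%, the T-box motif TCACAC in 2 of 7 and 12.3%, and the NFAT motif GGAAAA in 2 of 7 and 20.4%. Both strands were searched for each motif and no overlap between motifs was removed. *Ptprc* had 2 windows and counts as 1 member, with the E-box and the NFAT motif each in only 1 of them. The percentages are of single windows, so the 2 measures differ for this gene.

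Libraries varied in depth and batch, and some plates departed from their label. Total counts of unique molecular identifiers (UMIs, each 1 captured transcript) ran from 748458 to 4210158 per epithelial sample. *Lgr5*, in whose locus the receptor sits, was at 10.6 to 76.4 CPM (normalized UMIs per 1000000) in the control epithelium. In the DT epithelium it was at 6.23 to 46.7 CPM, so the ranges overlapped. The study's own count table marks the epithelial samples as batch a (replicates 1 and 2) and batch b (replicates 3 and 4). In the single cells, the 2 plates labelled as sorted for CD45+ singlets held 73 cells past the filters and all 73 were epithelial-like, with 10 UMIs of the 10 genes in 251521 UMIs of their wells. Cells with an immune profile lay on other plates. They were 116 of the 118 cells past the filters on 1 plate of mouse C labelled as Pdgfra singlets. On 1 plate of mouse B labelled as Pdgfra singlets Pop3 they were 84 of 84. The study's sort of Pdgfra+ cells was meant to leave out CD45+ cells. The paper proposes that immune cells were most likely sorted because fragments of telopodes, the thin extensions of telocytes, stuck to them. Whether plate labels were exchanged cannot be told from these data.

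In the epithelium, all 10 members had a lower fitted level 48 h after DT, by 0.30 to 0.69 on the log2 scale, and none passed the test. edgeR with a batch term called 0 of 10 members at an adjusted p of 0.05, 0 of 10 at an unadjusted p of 0.05, and DESeq2 called 0 of 10. Over all genes tested, 0.356% were called (32 of 8986), 17.3% had an unadjusted p under 0.05 and 49.5% had a fitted value below 0. The median log2 fold change was -0.48 over the 10 members and 0.00 over all genes tested. In bulk tissue, fewer cells of a type and less RNA per cell cannot be told apart. Each replicate was 1 mouse.

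The general leukocyte gene had the largest fitted difference of the 10. *Ptprc* was at 91.9, 67.6, 114.5 and 77.6 CPM in control mice 1 to 4 and at 101.0, 15.6, 38.7 and 70.7 CPM in DT mice 1 to 4. DT mice 2 and 3 lay below every control, while DT mouse 1 lay above 3 of the 4 controls, so the groups overlapped. The mean was 87.9 ± 20.4 CPM (SD, n = 4) in controls and 56.5 ± 37.3 CPM (SD, n = 4) after DT, with a log2 fold change of -0.69 ± 0.47 (SE) and an adjusted p of 0.461 in edgeR. With no filter on low counts *Ptprc* was the 1 member called (log2 fold change -0.68, edgeR adjusted p = 0.0435), where 2.15% of 15502 genes were called lower.

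The T cell receptor chains gave smaller differences. *Cd3e* was at 35.2, 20.6, 47.8 and 33.9 CPM in controls and at 41.7, 6.3, 22.3 and 34.5 CPM after DT, and its log2 fold change was -0.48 ± 0.43 (SE, edgeR adjusted p = 0.567). *Cd3g* was at 33.0, 16.2, 120.6 and 67.9 CPM in controls and at 38.4, 12.2, 76.1 and 53.7 CPM after DT, with a log2 fold change of -0.38 ± 0.34 (SE, edgeR adjusted p = 0.569). For both chains the DT mouse 2 was the lowest of all 8 samples. *Cd8a* ran from 10.3 to 53.7 CPM in controls and from 3.9 to 38.4 CPM after DT. *Cd7*, which encodes a surface glycoprotein of T cells and natural killer cells, ran from 10.3 to 99.0 CPM in controls and from 4.4 to 74.8 CPM after DT, at a log2 fold change of -0.61 ± 0.38 (SE, edgeR adjusted p = 0.412).

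*Gzma* was the most abundant member, at 305.1, 149.9, 839.9 and 495.2 CPM in controls and at 297.9, 79.8, 509.5 and 467.7 CPM after DT. Its mean was 448 ± 297 CPM (SD, n = 4) in controls and 339 ± 195 CPM (SD, n = 4) after DT. *Gzmb* was at 32.3, 8.8, 115.9 and 58.7 CPM in controls and at 25, 7.3, 53.5 and 54.1 CPM after DT, and its log2 fold change was -0.66 ± 0.38 (SE, edgeR adjusted p = 0.375). The highest *Gzmb* control was 13.1-fold the lowest, while the fitted level after DT was 0.631 of that in controls. *Nkg7* showed one of the smaller differences, with a log2 fold change of -0.32 ± 0.35 (SE, edgeR adjusted p = 0.650).

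The integrin and the chemokine were likewise highest in control mouse 3. *Itgae* was at 21.5, 2.9, 33.4 and 20.2 CPM in controls and at 11.7, 5.3, 22.6 and 17.9 CPM after DT, and is the member with the fewest UMIs, 410 over the 8 samples. *Ccl5*, a chemokine stored and released by cytotoxic T cells, was at 132.8, 30.9, 615.6 and 294.3 CPM in controls and at 106.0, 34.5, 383.5 and 352.8 CPM after DT. Its fitted log2 fold change of -0.30 ± 0.44 (SE, edgeR adjusted p = 0.738) was the smallest of the 10 and turned to 0.12 without control mouse 1.

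No member had all 4 DT samples on 1 side of the 4 controls, which 3.08% of all genes tested did. The exact two-sided permutation test over the 8 samples gave unadjusted p-values of 0.229 to 0.914 for the 10 members, where 0.0286 is the smallest that 70 splits allow. Permuting within batches gave 0.278 to 0.833, where the smallest possible p is 0.0556. The fitted log2 fold changes were -0.06 to -1.09 in batch a alone and -0.32 to -0.85 in batch b alone, and the test of the difference between batches called 0 of 10 members and 0 of all 8986 genes (0%) in edgeR, with 0 of 10 members at an unadjusted p of 0.05.

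**Figure D1:**
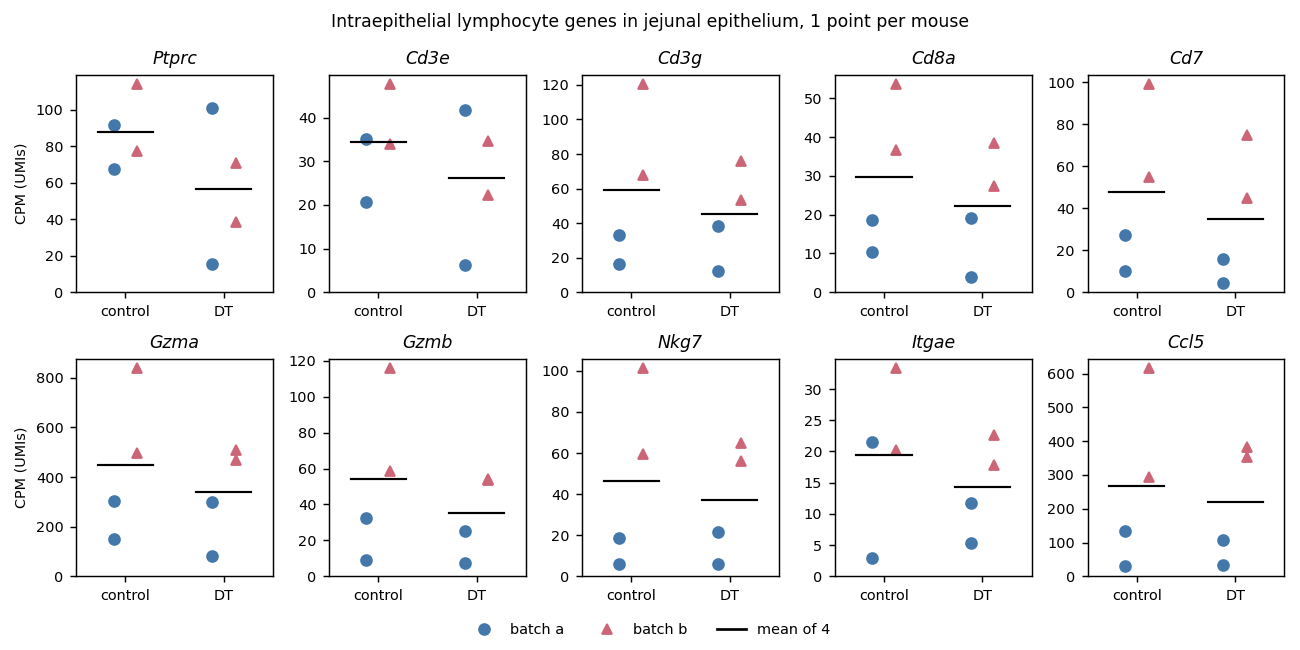
CPM of each of the 10 genes in the 8 epithelial samples, on linear axes from 0 with 1 scale per gene, with control and DT mice side by side, the batch given by the marker and the mean of 4 mice as a line. In every panel the DT values lie within or overlap the control values, and DT mouse 2 or control mouse 2 is the lowest sample.

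Most of the 10 genes differed between the batches. In the same edgeR fit, 8 of 10 members were called higher in batch b than in batch a, while 21.1% of all genes tested were called higher in batch b. This contrast was chosen after the data were seen. *Ccl5* was 5.34-fold higher in batch b (log2 difference 2.42, edgeR adjusted p = 0.0033), *Nkg7* 5.28-fold (2.40, edgeR adjusted p = 0.00115) and *Cd7* 4.87-fold (2.28, edgeR adjusted p = 0.00194). *Gzmb* was higher by 1.89, *Cd3g* by 1.65, *Cd8a* by 1.61, *Gzma* by 1.46 and *Itgae* by 1.12 on the log2 scale.

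The exceptions were *Ptprc* and *Cd3e*, whose log2 differences between batches were 0.11 (edgeR adjusted p = 0.871) and 0.42 (edgeR adjusted p = 0.459). Summed over the 10 genes, the level was 716, 323, 2142 and 1199 CPM in control mice 1 to 4 and 678, 175, 1284 and 1180 CPM in DT mice 1 to 4. The lowest samples of both groups were thus the second mice of batch a. With both of these left out, the members' log2 fold changes after DT were -0.26 to -0.60.

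**Figure D2:**
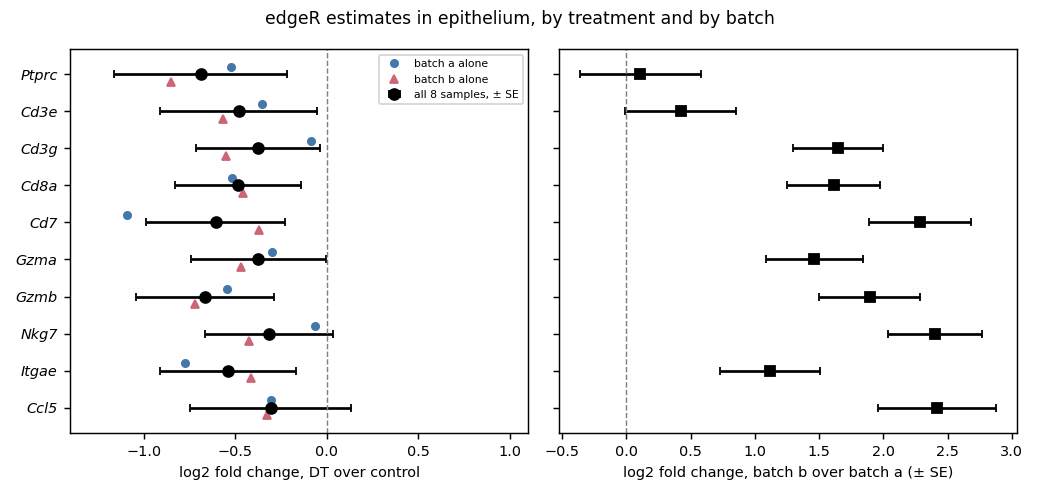
log2 fold changes of the 10 genes with their standard errors, for DT over control on the left, with batch a and batch b alone as small symbols, and for batch b over batch a on the right. The DT estimates lie between -0.30 and -0.69, while 8 of the 10 batch estimates lie between 1.12 and 2.42.

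Other lymphocyte genes took the same side as the members and likewise passed no test. A list of 69 further T cell and natural killer cell genes had 60 in the table and 22 past the filter on low counts. edgeR called 0 of these 22 at an adjusted p of 0.05, DESeq2 called 0, and 6 had an unadjusted p under 0.05 in edgeR, all lower after DT, against 8.44% of all genes lower at that p. In all, 21 of 22 had a fitted value below 0, against 49.5% of all genes, with a median log2 fold change of -0.52. The 5 with the smallest p included the kinases *Txk* and *Lck* and the adaptor *Lat* of T cell receptor signalling, the lymphoid transcription factor *Ikzf3* and the surface glycoprotein gene *Cd52*. *Txk* went from a mean of 13.5 CPM in controls to 7.19 CPM after DT (log2 fold change -0.94 ± 0.26 SE, edgeR adjusted p = 0.190). *Lck* went from 37.0 to 20.2 CPM (-0.93, edgeR adjusted p = 0.216), and *Lat* from 12.4 to 5.92 CPM (-1.20, edgeR adjusted p = 0.227).

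Over the 8 samples, centred within batches, the 10 genes most like the mean of the members included 1 of the list of other lymphocyte genes, *Rac2*. *Rgs1*, which damps chemokine receptor signals, had the highest Pearson correlation with the member mean, 0.982, and *Rac2*, the blood cell form of a small GTPase, had 0.971. The other 8 of the first 10 were *Yod1* (0.972), *Irf2bpl*, *Dusp8*, *Rab11b*, *Slc25a22*, *St8sia4*, *Coro2a* and *Il4ra* (0.958). The samples share libraries and their depth. Of the 22 other lymphocyte genes, 19 had a correlation above 0.5 (86.4%), against 1346 of 8954 genes outside both lists (15.0%). Each member's own correlation with the mean of the other 9 ran from 0.802 for *Itgae* to 0.990 for *Gzma*.

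Enterocyte genes that address these lymphocytes were read from a list of 24 genes, 13 of them past the filter. edgeR called 0 of 13 at an adjusted p of 0.05, against 0.356% of all genes tested. At an unadjusted p under 0.05 in edgeR, 3 were lower and 0 higher, against 8.44% of all genes lower. The butyrophilin-like genes *Btnl1* and *Btnl6*, whose products form heteromers that maintain gamma-delta intraepithelial lymphocytes, had means of 181 and 79.9 CPM in controls and 132 and 42.9 CPM after DT, with log2 fold changes of -0.44 (edgeR adjusted p = 0.319) and -0.84 (edgeR adjusted p = 0.235). Control mouse 2 was the highest of the 8 samples for both, at 353 and 181 CPM, and without both mice numbered 2 the log2 fold changes were -0.19 and -0.38. *H2-T3*, the gene of the TL antigen that binds CD8α homodimers, had 253 and 192 CPM (-0.46, edgeR adjusted p = 0.257). *Btnl2* had 70.1 and 54.1 CPM (-0.42, edgeR adjusted p = 0.276). The cytokine gene *Il18* lay on the other side, at 76.4 CPM in controls and 119 CPM after DT (0.64, edgeR adjusted p = 0.348).

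Markers of other cells were read as summed levels. The summed myeloid and antigen presentation list was 2061 to 4209 CPM in controls and 155 to 1946 CPM after DT, without overlap. Single genes without overlap made up 3.08% of all genes tested. *Cd74* and MHC class II genes, which enterocytes also express, made up most of the sum. The 5 genes of the list past the filter all had fitted values below 0, against 49.5% of all genes, with a median log2 fold change of -1.19. edgeR called 0 of the 5, at adjusted p-values of 0.220 to 0.473. Below the filter, means moved both ways, such as *C1qb* from 4.28 to 5.97 CPM and *Itgax* from 3.36 to 2.07 CPM. The epithelial list was 22518 to 34218 CPM in controls and 27373 to 40224 CPM after DT. B and plasma cell markers were 25 to 80.3 CPM in controls and 32.2 to 79.3 CPM after DT, mesenchymal markers 10.8 to 17.8 and 2.92 to 22.5 CPM, endothelial markers 3.50 to 20.8 and 1.82 to 12.5 CPM, and mast cell markers 7.35 to 17.6 and 7.91 to 15.0 CPM. The defining endothelial genes *Cdh5* and *Kdr* were at 0 UMIs in all 8 samples. Their part in the members' values was not tested.

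In the stroma, the 10 genes were measured in all 4 zones, and their mean summed level was lowest at the villus top. Intraepithelial lymphocytes sit above the basement membrane, so levels in dissected stroma cannot be read as theirs. Which cells gave these levels was not tested. LCM values are given in ppm, parts per 1000000 of the transcript sum after the most abundant enterocyte genes were taken out of the divisor, and each mouse was averaged over its sections. The summed level of the members was 711 ± 725 ppm (SD, n = 3 mice) in the crypt and 1202 ± 540 ppm (SD, n = 5) at the villus bottom. It was 1246 ± 611 ppm (SD, n = 5) at the villus center and 411 ± 190 ppm (SD, n = 5) at the villus top. At the center of mouse 4, the sum of 1669 ppm was nearly all *Ptprc*, at 1646 ppm. Each mouse's top value, 159 to 601 ppm, lay below the lowest bottom value of 642 ppm, while the 3 crypt values, 201 to 1540 ppm, overlapped both.

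Between the ends of the villus, all 10 members had a fitted difference below 0 for top against bottom, as did 54.2% of the 13537 genes tested. limma with the mouse as a block called 0 of 10 members and 0 of all genes (0%) at an adjusted p of 0.05. At an unadjusted p of 0.05, 4 of 10 members were lower at the top, against 7.24% of all genes. The median log2 difference was -2.12 over the members and -0.10 over all genes tested.

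*Cd3g* had the smallest p. It was at 51.6 ± 36.5 ppm (SD, n = 5) at the villus bottom, 22.4 ± 19.7 ppm at the center, 8.10 ± 6.04 ppm at the top and 46.7 ± 54.3 ppm (n = 3) in the crypt, and was lower at the top than at the bottom in 5 of 5 mice, by 2.79 on the log2 scale (95% interval -4.15 to -1.42, limma adjusted p = 0.171). *Gzma* was at 372 ± 164 ppm at the bottom, 269 ± 289 ppm at the center, 95.8 ± 71.7 ppm at the top and 159 ± 175 ppm in the crypt. It was lower at the top in 4 of 5 mice, with a log2 difference of -2.82 (95% interval -5.42 to -0.21, limma adjusted p = 0.494), and was listed at 0 in the top of mouse 4. *Cd7* had 40.9 ± 18.3 ppm at the bottom and 15.0 ± 22.6 ppm at the top and was lower at the top in 3 of 5 mice, with a log2 difference of -2.32 (95% interval -4.27 to -0.37, limma adjusted p = 0.463).

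*Ptprc* was lower at the top in 5 of 5 mice, by 1.95 on the log2 scale (95% interval -3.62 to -0.28, limma adjusted p = 0.471). Its center mean of 407 ppm rested on mouse 4, whose value was 1646 ppm, and the center median was 42.9 ppm. In that same center section *Cd3e*, *Cd7*, *Gzmb*, *Itgae* and *Ccl5* were listed at 0. The smallest differences were those of *Cd3e*, at 40.9 ± 26.1 ppm at the bottom and 43.6 ± 39.4 ppm at the top, and *Cd8a*, at 14.2 ± 10.4 and 13.0 ± 8.63 ppm, which were lower at the top in 3 and 2 of 5 mice. Their fitted differences turned above 0 when 1 mouse was left out, to 0.11 for *Cd3e* and at most 0.26 for *Cd8a*.

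Single sections were uneven. Members above 0 numbered 4 to 10 per section, and genes above 0 of any kind 5481 to 17306. *Nkg7* was above 0 in 2 of 8 top sections, 5 of 8 bottom sections and 3 of 6 crypt sections, and its bottom mean of 115 ppm went with a median of 23.5 ppm. *Ccl5* had 374 ppm in the crypt, 380 ppm at the bottom, 350 ppm at the center and 149 ppm at the top, and neighbouring zones from crypt to center did not differ beyond their spread. Because reads per section are not given for these files, no depth interval could be set.

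**Figure D3:**
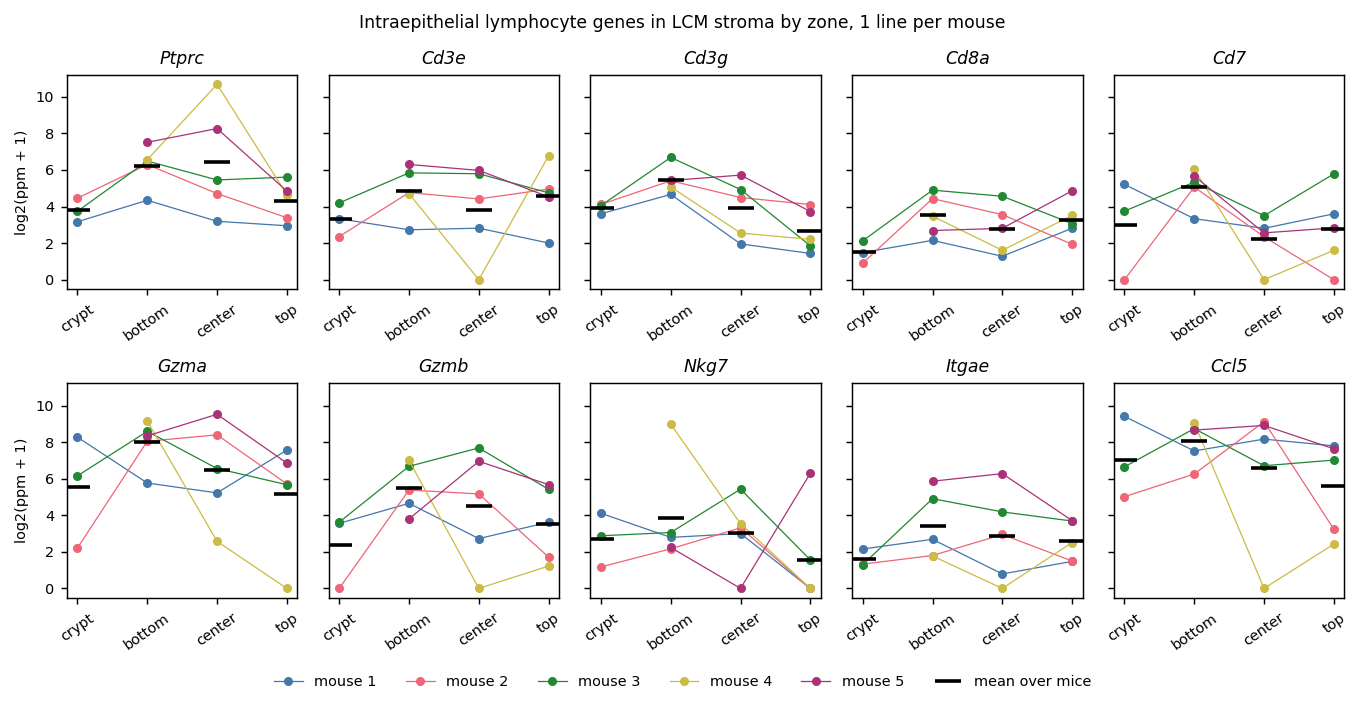
Level of each of the 10 genes, as log2(ppm + 1), in the 4 stromal zones, 1 point per mouse, joined across zones, with the zone mean as a bar, for 3 mice in the crypt and 5 in each villus zone. For *Cd3g* and *Ptprc* every mouse was lower at the villus top than at the bottom, while *Cd3e* and *Cd8a* overlapped between those zones.

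From crypt to villus bottom all 10 members had a fitted difference above 0, against 48.8% of all genes tested, with a median of 1.52 on the log2 scale. Only 3 mice had both zones, and limma called 0 of 10 members and 0 of all genes (0%). *Gzmb* had a log2 difference of 3.38 (95% interval 0.61 to 6.14) and *Cd8a* 2.04 (95% interval 0.19 to 3.88), the 2 of 10 members with an unadjusted p under 0.05, against 1.39% of all genes. Between villus top and crypt 6 of 10 members were lower at the top by the fit, against 57.3% of all genes, and limma called 0 of 10 (0% of all genes), with 0 of 10 lower at an unadjusted p of 0.05, against 2.45% of all genes. The test of any difference over the 4 zones called 0 of 10 members in limma (0% of all genes), and 3 of 10 had an unadjusted p under 0.05, against 7.23% of all genes.

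Genes of other leukocytes were read in the same fit. Of 55 other lymphocyte genes tested, 16 were lower at the top than at the bottom at an unadjusted p of 0.05 in limma against 7.24% of all genes, and 0 at an adjusted p. A fitted difference below 0 was found for 39 of the 55 (70.9%), against 54.2% of all genes, with a median log2 difference of -0.75. Named here are genes with the smallest p. *Cd52* differed by -3.09, *Srgn*, a granule proteoglycan gene, by -2.92 and the gamma chain constant gene *Tcrg-C1* by -3.13. B and plasma cell genes had a median of -4.29, with the antibody joining chain *Jchain* at -4.73, and their raw TPM sum was 65978 to 174261 at the bottom and 246 to 45389 at the top. Myeloid genes had a median of -2.22, with the macrophage gene *C1qa* at -3.06, while their raw TPM sums overlapped, at 976 to 3064 at the bottom and 57.0 to 3126 at the top. Epithelial markers were also present, at 11061 to 30500 TPM at the bottom and 2774 to 26357 TPM at the top, and their part in the members' values was not tested.

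The single cells gave the members cell by cell. Of 12346 wells on 35 plates from 8 mice, 2347 held 400 to 8000 UMIs and at least 250 genes. All 384 well barcodes were used on more than 1 plate, so cells were told apart by plate and barcode. Clustering without the 10 genes and without the list of other lymphocyte genes gave 18 clusters, of which 1 was immune-like by its markers with 203 cells, beside 1814 epithelial-like and 330 mesenchymal-like cells. The immune-like cells had 4697 member UMIs per 100000 UMIs, the epithelial-like cells 4.88 and the mesenchymal-like cells 1.5. With cells of 2 mice making up 200 of the 203, the shares that follow describe those cells, with exact binomial 95% intervals that cover counting error only and no test.

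*Ccl5* was found in the largest share of immune-like cells, 153 of 203 (75.4%, interval 68.8 to 81.1%), against 0.662% of epithelial-like cells. *Cd7* followed at 65.0% and *Gzma* at 60.6%, then *Gzmb* at 42.9%, *Cd3g* at 40.4%, *Nkg7* at 37.9%, *Cd8a* at 36%, *Cd3e* at 33.5% and *Itgae* at 24.1%. *Ptprc* was last, at 17.7% (interval 12.7 to 23.7%). In the epithelial-like cells no member was found in more than 0.992% of cells, the share of *Gzma*, and *Nkg7* was found in 0 of 1814 cells, which allows a share with a UMI of up to 0.165% at 3 counts and of 0.203% by the exact interval. The median depth was 669 UMIs in immune-like and 1600 UMIs in epithelial-like cells, so the class with the lower depth had the higher shares.

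By UMIs, which count transcripts irrespective of gene length, immune-like cells had 2193 of *Ccl5*, 1514 of *Gzma*, 330 of *Cd7*, 209 of *Gzmb*, 99.4 of *Cd8a*, 98.8 of *Cd3g*, 81.2 of *Nkg7*, 78.2 of *Cd3e*, 50.9 of *Itgae* and 43.6 of *Ptprc* per 100000 UMIs. The order in the control epithelium was similar at its top, with *Gzma* and *Ccl5* first at 448 and 268 CPM. *Ptprc* was next there, at 87.9 CPM, and was last in the immune-like cells. By their plate labels, nearly all these cells came from a sort set to leave out cells with CD45 protein on the surface. The labels could not be checked, and the part of the sort in this value was not tested.

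*Ccl5*, *Cd7* and *Gzma* led in both mice. *Ccl5* was found in 79.8% of the 84 cells of mouse B and 73.3% of the 116 cells of mouse C, *Cd3g* in 41.7% and 39.7%, and *Itgae* in 25% and 23.3%. The widest gap was that of *Nkg7*, at 50% and 29.3%. Median depth was 709 UMIs in mouse B and 646 UMIs in mouse C.

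A single immune-like cell usually held several members. At least 1 was found in 190 of 203 cells (93.6%), at least 2 in 171 (84.2%) and at least 4 in 127 (62.6%), with a median of 5 per cell. All 10 were found in 2 cells and none in 13. Among epithelial-like cells, 38 of 1814 (2.09%) held at least 1 member, 8 (0.441%) at least 2 and 5 (0.276%) at least 4. Of 330 mesenchymal-like cells, 4 held 1 and 0 held 2 or more. The median depth was 642 UMIs in the 32 immune-like cells with 0 or 1 member, 561 UMIs in the 44 with 2 or 3, 668 UMIs in the 88 with 4 to 6 and 829 UMIs in the 39 with 7 to 10.

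**Figure D4:**
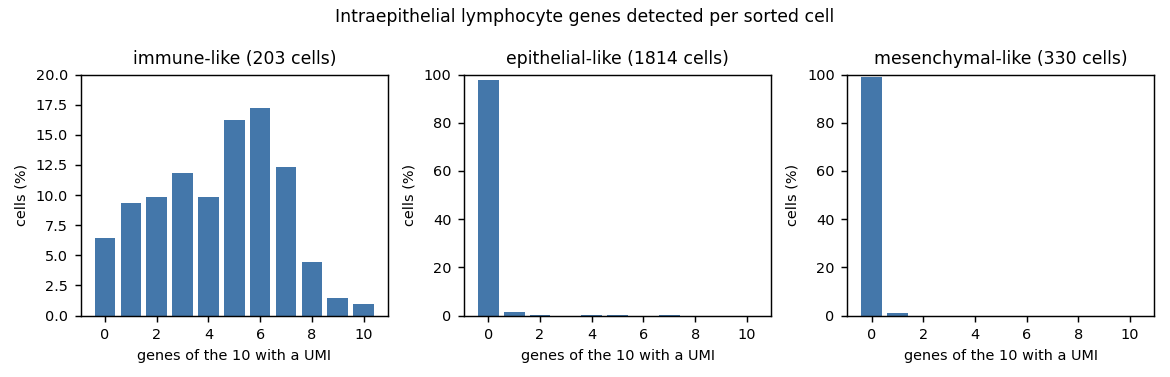
Number of the 10 genes with a UMI per cell, as the percent of cells in the immune-like, epithelial-like and mesenchymal-like classes, where the axis of the first ends at 20% and those of the others at 100%. Immune-like cells spread around a median of 5, while 2.09% of epithelial-like cells held any.

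The 5 epithelial-like cells with 4 or more members came from 5 wells of 4 gates in mice C, E and H. One from the gate for Epcam and Pdgfra doublets held 7 members in 57 UMIs, among them 26 of *Gzma* and 24 of *Ccl5*, in 3654 UMIs in all. One from the Epcam singlets held 5 members in 22 UMIs. In 4 of the 5 cells *Gzma* and *Ccl5* had the most UMIs, and in the fifth *Gzma* and *Cd7* had.

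Members were found together in the same cells. For 80 of the 90 ordered pairs, the second gene was found in a larger share of immune-like cells with the first gene than without it. The median difference was 17.7 percentage points, and in 40 ordered pairs the 2 exact intervals did not overlap. Each pair is counted in both orders, and the sign of the difference is the same in both. Pairs of other genes were not examined, and the part of cell depth or of a mixture of cells was not tested. The granule genes and *Ccl5* led. *Gzma* was found in 120 of 153 cells with *Ccl5* (78.4%) and 3 of 50 without it (6.00%). *Gzmb* was found in 83 of 123 cells with *Gzma* (67.5%) and 4 of 80 without it (5.00%).

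Cells with *Gzmb* lay almost wholly within those with the other 2 genes. All 87 cells with *Gzmb* had *Ccl5*, and 83 of those 87 had *Gzma* (95.4%), while 40 of 116 cells without *Gzmb* had *Gzma* (34.5%). *Gzmb* was found in 0 of the 50 cells without *Ccl5*, which allows a share of cells with a UMI of up to 6.00% at 3 counts and of 7.11% by the exact interval. In mouse B alone 74 of 90 ordered pairs were higher and 12 had separate intervals, and in mouse C alone 72 and 22 did. With every cell thinned to 400 UMIs, 74 of 90 ordered pairs were higher and 30 had separate intervals. *Gzmb* was then found in 61.3% of cells with *Gzma* and 3.57% without.

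All pairs of *Ptprc* with *Cd3e*, *Gzma*, *Gzmb* and *Ccl5* lay on the other side. *Ccl5* was found in 63.9% of the cells with *Ptprc* and 77.8% of those without, and *Gzma* in 50% and 62.9%, with intervals that overlapped in both cases. *Ptprc* was found in 36 cells in all.

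**Figure D5:**
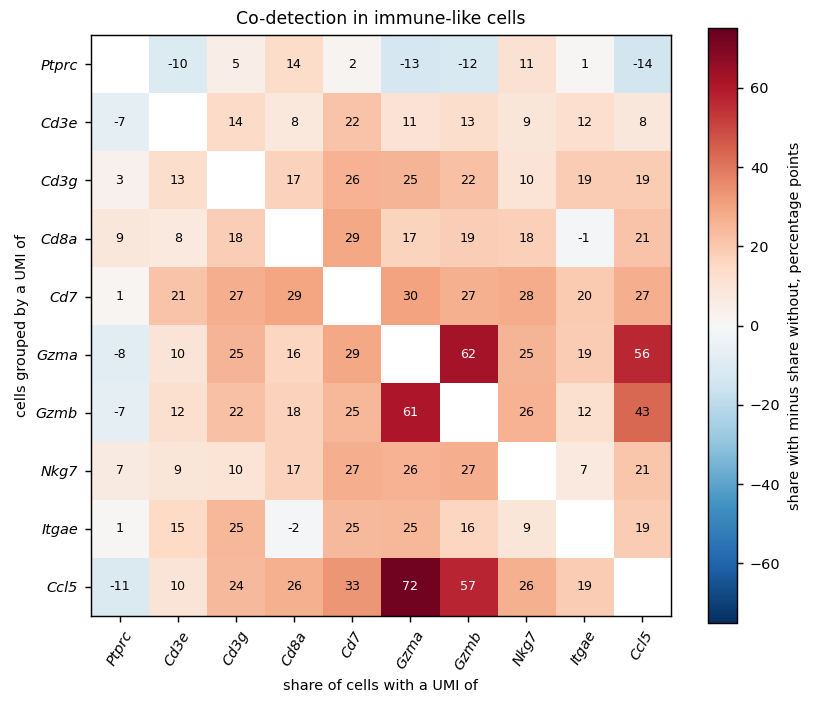
Share of the 203 immune-like cells with a UMI of the column gene among cells with the row gene, minus the share among cells without it, in percentage points, for all ordered pairs of the 10 genes. The block of *Gzma*, *Gzmb* and *Ccl5* holds the largest differences, and the row of *Ptprc* holds differences at or below 0 for *Gzma* and *Ccl5*.

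Members were found beside the receptor genes of both T cell lineages. *Trdc*, the delta chain constant gene, was found in 63 of 203 immune-like cells (31.0%), *Trac*, the alpha chain constant gene, in 31 (15.3%) and both in 8. *Cd8a* was found in 73 cells and *Cd8b1*, the beta chain of the CD8 heterodimer, in 7 (3.45%), with 2 cells holding both. In the 55 cells with *Trdc* and no *Trac*, *Gzma* was found in 67.3% and *Ccl5* in 81.8%, and in the 23 cells with *Trac* and no *Trdc* in 69.6% and 91.3%. *Cd3e* was found in 49.1% (interval 35.4 to 62.9%) and 13.0% (interval 2.78 to 33.6%), so the intervals of this gene did not overlap. *Cd8a* was found in 34.5% and 52.2%.

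Of the list of other lymphocyte genes, 63 of 69 were in the single-cell table. The immune-like class was named by 6 of them (*Cd52*, *Coro1a*, *Laptm5*, *Rac2*, *Arhgdib* and *Srgn*), whose shares are therefore no result. Of the other 57, 51 had a UMI in an immune-like cell and 39 had a share whose interval lay above that of the epithelial-like cells. The matching share over all genes was not computed, so these counts do not set the list apart from other genes. *Trbc2*, the constant gene of a T cell receptor beta chain, led at 47.3%, followed among receptor genes by *Tcrg-C2* at 36.5% and *Trbc1* at 33.5%. Genes of B cells and of antigen presentation were also found in this class. The immunoglobulin heavy chain *Ighm* was found in 36 cells (17.7%) and *Cd74* in 17 (8.37%), against 59.9% of epithelial-like cells for *Cd74*. In the 17 cells with *Cd74*, *Cd3e*, *Cd3g*, *Gzmb* and *Nkg7* were found in 0, *Ccl5* in 3 and *Gzma* in 1. In the 36 cells with *Ighm*, *Cd3g* was found in 38.9%, *Nkg7* in 41.7%, *Gzma* in 50% and *Ccl5* in 66.7%, against 40.7%, 37.1%, 62.9% and 77.2% of the cells without it, and the intervals overlapped for each.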

How the data were processed

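Epithelium of 8 mice, 29 LCM sections and 35 sorted plates were read. For the epithelium (mcSCRB-seq) and the single cells (MARS-seq) the authors deposited UMI counts per gene with no normalization, made with zUMIs on GRCm38. For the LCM sections (SMART-seq) the authors deposited TPM values from kallisto, so read depth is not known and an exact 0 may be a failed estimate. The submitters' processing notes name bcl2fastq 2.15.0.4.

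Epithelial counts were fitted in edgeR 4.0.16 (TMM, robust quasi-likelihood, batch and treatment) for genes above 0.001% of UMIs in at least 2 samples, with Benjamini-Hochberg adjustment over all of them. DESeq2 1.42.0 was run beside it. CPM is UMIs per 1000000 of the sample total multiplied by its TMM factor, which ran from 0.909 to 1.06. LCM TPM were rescaled to ppm after 372 enterocyte genes, and then genes of 1% or more of a sample, left the divisor (*Gzma*, 1 of the enterocyte genes by the rule, kept its value). Sections were averaged per mouse on the log2(ppm + 1) scale, which understates changes of low genes, and fitted in limma 3.58.1 with mouse as a block for genes with a zone mean above 5 ppm. Zone means in the text average ppm. Cells were clustered with leidenalg 0.10.2 (11 components, 30 neighbours, resolution 2) on 1111 variable genes that left out the members. No doublet caller was run, because some gates were sorted for doublets. A plate of 352 wells that matched no sample was not used.

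The members and lists were chosen with earlier results of these data known. The genes named are all members, the 5 genes of each partner list with the smallest p, the 10 genes most like the members' mean, and markers of other cells. Control and DT samples of the same number deviated together (correlations of 0.61, 0.41, 0.66 and 0.58), which follows from the shared batches, since within batches the correlations were -0.16 and -0.06. On simulated counts of the 8986 epithelial genes edgeR recovered 44% of genes lowered by 1 and 96% of those lowered by 2 on the log2 scale. On simulated LCM values of 13537 genes limma recovered 26% of genes lowered by 3 at the villus top and 66% of those lowered by 6. In both simulations the changed genes were drawn at random from all genes tested, so recovery of the members themselves was not measured. Alternatives included other normalizations, filters, pseudocounts and samples left out.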

Additional observations from a re-analysis of the deposited data

Results flagged for a closer look

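Of 50 groups of 4 or 5 samples checked, 4 held a sample set apart from the others, and chance alone sets apart about 1 in 20 groups. All 4 were LCM values on the log2(ppm + 1) scale. *Gzma* was listed at 0.0 at the villus top of mouse 4, the lowest of 5 mice. *Ccl5* was listed at 0.0 at the villus center of mouse 4, also the lowest. *Nkg7* reached 8.98 at the villus bottom of mouse 4, the highest of 5 mice. At the villus top *Nkg7* reached 6.30 in mouse 5, the highest there.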

How the results depend on the processing

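In the epithelium, 158 of 160 log2 fold changes of a member under the alternatives kept their direction and stayed on their side of the threshold. The exceptions were *Ccl5*, which ran from -0.63 to 0.12 when 1 sample was left out (0.12 without control mouse 1), and *Ptprc* with no filter on low counts. *Ptprc* was then called at -0.68 (edgeR adjusted p = 0.0435, against 0.0435 to 0.913 over its alternatives), where 2.15% of 15502 genes were called lower. In that setting 1 of 10 members and 7 other lymphocyte genes were called, counting either direction, and so were 635 of the 15502 genes. Over all genes the count of 32 was 159 in DESeq2 (45 higher), 635 with no filter (302 higher), 1 with no batch term, 0 in batch a alone and 5 in batch b alone, the last 2 chosen after seeing the data. It was 3 with the replicate block in place of the batch, which changed no member's call. Leaving out 1 sample gave 3 to 41, with 3 without control mouse 1, 19, 10 and 11 without control mice 2, 3 and 4, and 10 and 9 without DT mice 2 and 3. In the LCM data, no alternative called a member. Top against bottom, the count over all genes was 3 with a pseudocount of 10 ppm and 0 to 4 with 1 mouse left out (3 without mouse 4, 4 without mouse 5), and without the replicate block of mice it was 0. With 1 mouse left out, *Cd8a* ran from -0.91 to 0.26 (above 0 without mouse 2 or 3) and *Cd3e* from -0.85 to 0.11 (without mouse 5). Bottom against crypt, *Nkg7* ran from -0.28 (without mouse 4) to 1.62. Top against crypt, *Cd7* ran from -0.72 to 0.96, *Gzma* from -1.95 to 0.92 and *Itgae* from -0.19 to 1.45. In that comparison a pseudocount of 0.1 ppm gave 0.24 for *Cd7* and 0.033 for *Gzma*, and no replicate block gave 0.50 for *Ptprc*. The cause of these changes was not tested. Cells with at least 2 members numbered 179 and were 301 with a minimum of 200 UMIs and 100 genes, and 8 without the 2 plates that hold most immune-like cells. Of 80 shares of cells with a UMI under the alternatives, 17 left their main interval, all lower, 14 of them with cells thinned to 400 UMIs, where *Cd7* was found in 51.7% and *Ptprc* in 10.3% of immune-like cells.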
